A study of Mus musculus with 11 samples.

Results

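The 48 genes described here copy DNA, license the origins at which copying starts or supply its nucleotides. They were listed by function, out of 48440 genes in the count table of the cultures and 32285 genes in the scRNA-seq matrices, and all 48 are in both. The list holds 9 licensing genes (Orc1 to Orc6, Cdc6, Cdt1 and Gmnn), the 6 subunits of the replicative helicase (Mcm2 to Mcm7), 10 genes of origin firing (Cdc7, Dbf4, Ccne1, Ccne2, Mcm10, Cdc45 and Gins1 to Gins4) and the clamp Pcna with its loader (Rfc1 to Rfc5). It also holds 9 polymerase and primase subunits (Pola1, Pola2, Prim1, Prim2, Pold1 to Pold3, Pole and Pole2), the single-strand binding proteins Rpa1 to Rpa3, the Okazaki fragment enzymes Fen1 and Lig1, and Rrm1, Rrm2 and Tyms of nucleotide supply.

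Syncrip is an RNA-binding protein, and its conditional knockout carries loxP sites around exons 2 to 4 and a Cre recombinase. The paper gives the name conditional knockout (cKO) to its Syncrip fl/fl mice with Emx1-Cre, which acts in dorsal cortical progenitors. A Nestin-Cre line was also made. The sample labels say cKO without naming the driver, so the samples are taken here as the Emx1-Cre line. RNA-seq was made from neural progenitor cells (NPCs) of E14.5 mice on a C57BL/6 background, 3 WT and 3 cKO cultures started from tissue around the lateral ventricles and kept in medium with bFGF, EGF and B27. Cultures of this kind were passaged for 3 generations before other assays. Single-cell RNA-seq (scRNA-seq) was made from the dorsal cortex of 1 WT and 1 cKO embryo of the same litter at E14.5. Nothing in the labels says that the cultures came from separate animals. Y-linked counts below differ within each genotype, so each held more than 1 animal, but separate animals for all 3 cultures are not shown. The p-values thus measure the spread between these cultures, which may be in part technical.

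Before S phase, the origin recognition complex, Cdc6 and Cdt1 load the MCM helicase onto origins, and geminin (Gmnn) blocks a second loading. Cyclin E and the kinase of Cdc7 with Dbf4 then turn the loaded helicase, joined by Cdc45 and GINS, into a moving fork. Transcription of many of these genes is known to rise toward S phase through E2F factors held back by RB proteins. In the embryonic cortex, apical progenitors (APs, the radial glia of the ventricular zone) and intermediate progenitors (IPs) divide, while neurons have left the cycle.

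Promoters were searched for words of the kind E2F factors bind, TTTCCCGC, TTTCGCGC, TTTGGCGC and TTTGCCGC on both strands within the 250 bases before the RefSeq start (GRCm38.p6). Of the 48 genes, 39 matched a promoter window, and 9 of these (23.1%) held a word, against 583 of 27025 gene symbols (2.16%). The share was 4 of 17 among those called higher in cKO cultures below and 5 of 22 among the others. The 2 stretches shown are those of the called gene with the largest rise in each role group that had such a promoter. Capitals mark the words, and in Mcm5 the words TTTCGCGC and the reverse of TTTGGCGC overlap.
Mcm5: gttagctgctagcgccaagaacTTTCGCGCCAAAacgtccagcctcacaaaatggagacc
Pola1: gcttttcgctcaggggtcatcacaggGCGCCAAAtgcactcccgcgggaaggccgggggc
The Mcm5 stretch is chr8:75109334-75109393 on the plus strand, and its second word begins 149 bases before the start. The Pola1 stretch is chrX:93632260-93632319 on the minus strand, with its word beginning 138 bases before the start. A word is a match of letters and was not tested as a binding site.

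The cultures held 16962903 to 22708400 counts each. The targeted gene had 77.9, 79.8 and 79.8 CPM (counts scaled to the library total) in the WT cultures and 90.2, 88.6 and 81.4 in the cKO cultures, with a log2 difference of 0.13 (standard error 0.08, edgeR adjusted p = 0.180). In the AP-like cells defined below it was at 314 CPM in WT and 323 in cKO. The deleted exons are a small part of the counted gene and the single-cell reads come from the 3′ end, so these values do not check the deletion. Of the cultures, 3 carried Y-linked counts from 5903 to 9232 (2 WT and 1 cKO) and the others no more than 1, so both genotypes mixed sexes. The WT embryo had 22062 UMIs of 4 Y-linked genes and the cKO embryo 211, so sex and genotype cannot be told apart in scRNA-seq.

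In cultures, the first question was whether the replication genes as a body differed between genotypes. Of the 48, 46 passed the filter on low counts, and 21 were called higher and 2 lower in cKO at an edgeR adjusted p of 0.05, where 19.7% of all 14432 tested genes were called higher and 19.8% lower. Without cKO replicate 3 the count of genes called higher was 10, and without cKO replicate 2 it was 13. The median log2 fold change was 0.30, against 0.00 over all tested genes, and 38 of 46 were above 0. All 3 cKO cultures lay above all 3 WT cultures for 22 of the 46 (25.7% of all genes), and below for 5 (24.7%). The summed level of the 48 was 1159.8, 1118 and 1078 CPM in WT and 1214, 1326 and 1348 CPM in cKO, with no overlap. In such bulk samples, fewer cells of a type and less RNA per cell cannot be told apart.

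**Figure D1:**
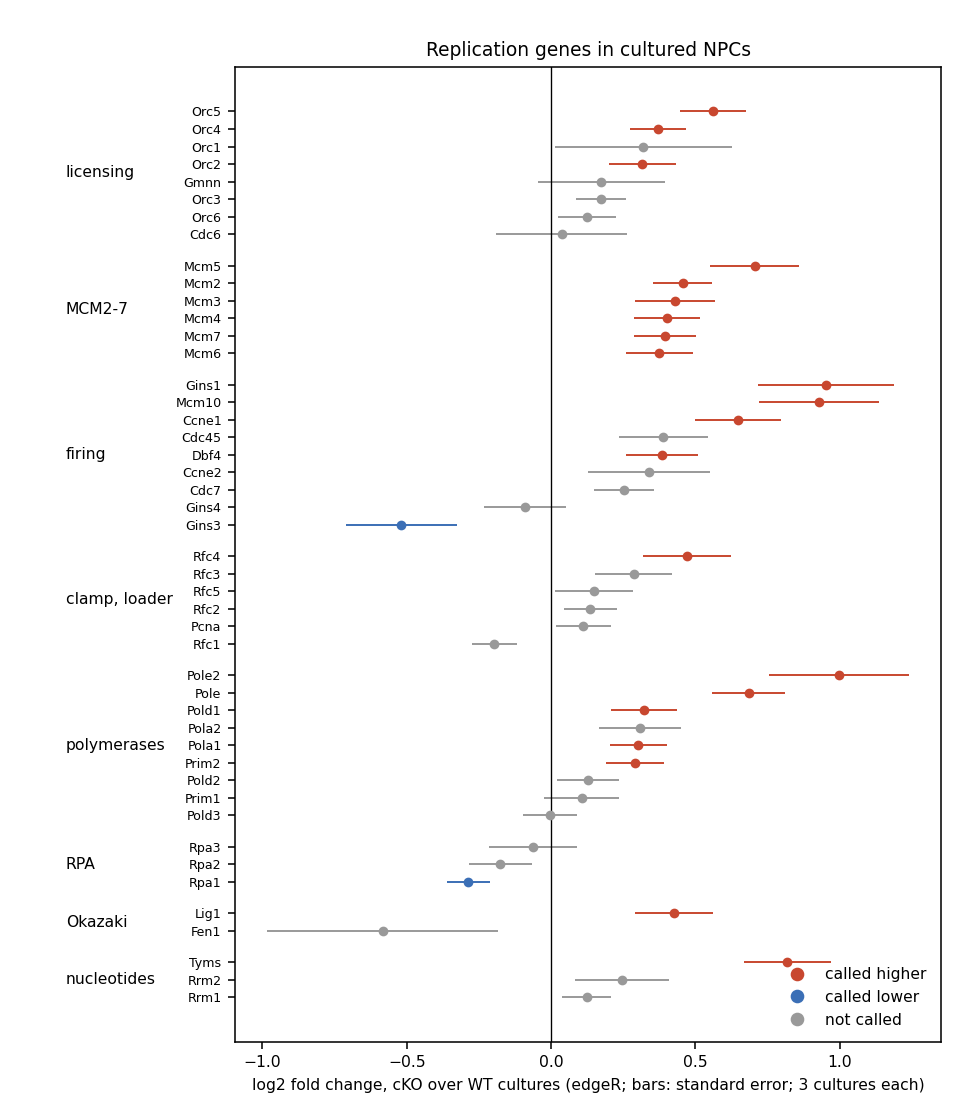
Log2 fold change (cKO over WT, horizontal axis) of the 46 tested replication genes in cultured NPCs, grouped by role, with bars of 1 standard error and 3 cultures per genotype. Red points are called higher and blue points lower at an edgeR adjusted p of 0.05. All 6 MCM subunits lie between 0.38 and 0.70, and the 3 RPA subunits lie at or below -0.06.

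The helicase was the role group with every member called. Mcm5 stood at 17.1, 20.3 and 16.3 CPM in WT and 21.8, 35.7 and 30.1 CPM in cKO. Its log2 fold change was 0.70 (standard error 0.15, edgeR adjusted p = 0.00253). Mcm2 was at 17.8, 19.7 and 17.5 CPM in WT and 24.1, 24.3 and 26.8 in cKO, which is 0.46 on the log2 scale (standard error 0.10, edgeR adjusted p = 0.00333). For both genes the groups did not overlap. Mcm3, at 16.98, 19.6 and 14.1 against 19.5, 22.5 and 26.0 CPM, overlapped by WT replicate 2 and cKO replicate 1 and rose by 0.43 (standard error 0.14, edgeR adjusted p = 0.0253). Mcm4, Mcm6 and Mcm7 rose by 0.38 to 0.40. Summed over the 6 subunits, WT cultures had 159, 171 and 147 CPM and cKO cultures 182, 234 and 230.3 CPM, so that cKO replicate 1 was nearest to WT. Without cKO replicate 3, Mcm3, Mcm4, Mcm6 and Mcm7 were no longer called (edgeR adjusted p from 0.0555 to 0.144). Without cKO replicate 2 or WT replicate 3 the same was true of Mcm3, Mcm4 and Mcm6 (0.0510 to 0.0982). Mcm2 and Mcm5 were called whichever culture was left out.

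Of the licensing factors, 3 of 8 tested were called higher and none lower. All 3 are subunits of the origin recognition complex. Orc5 was measured at 29.9, 22.1 and 24.4 CPM in WT and 40.8, 35.7 and 36.4 in cKO cultures, up by 0.56 on the log2 scale (standard error 0.12, edgeR adjusted p = 0.00172). Orc4 was at 89.6, 68.8 and 69.5 CPM against 102, 96.8 and 95.9 CPM, a rise of 0.37 (standard error 0.10, edgeR adjusted p = 0.00866). Orc2 had 14.54, 13.03 and 15.4 CPM in WT against 17.9, 18.3 and 17.3 in cKO, with an edgeR adjusted p of 0.0415 that was 0.0557 by DESeq2, 0.0735 with sex as a covariate and 0.0722 without the filter on low counts. Its call was also lost without WT replicate 2 or any 1 cKO culture (0.0885 to 0.136), and that of Orc4 without WT replicate 2 (0.0623). In each of the 3, all cKO cultures exceeded all WT cultures. Of the span of Orc2, 45.0% is shared with other genes. Orc3, not called, was at 126, 99.98 and 111 CPM in WT and 125, 124 and 132 in cKO (log2 fold change 0.17, edgeR adjusted p = 0.126). The regulators of loading did not pass either, with log2 fold changes of 0.04 for Cdc6 and 0.17 for Gmnn. Orc1, with 63.3% of its span shared with another gene, and Orc6 were at 0.32 and 0.12, also not called.

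Origin firing held the widest range. Gins1, a GINS subunit, was at 2.03, 3.398 and 3.75 CPM in WT and 4.90, 6.58 and 6.27 CPM in cKO, a log2 fold change of 0.95 (standard error 0.24, edgeR adjusted p = 0.00580). Mcm10, which acts as the helicase is activated, had 3.51, 6.29 and 4.55 CPM against 7.60, 9.44 and 10.1 CPM, a rise of 0.93 (standard error 0.21, edgeR adjusted p = 0.00311). Ccne1, cyclin E1, had 9.28, 8.19 and 8.52 CPM in WT and 11.3, 13.7 and 15.8 in cKO, a rise of 0.65 (standard error 0.15, edgeR adjusted p = 0.00368). The lowest cKO culture was above the highest WT culture in all 3 genes. Dbf4 was also called, at 0.38, but not without WT replicate 2, WT replicate 3 or cKO replicate 3 (edgeR adjusted p from 0.0680 to 0.136). Against these, the GINS subunit Gins3 was at 6.26, 6.13 and 5.62 CPM in WT and 3.24, 4.66 and 4.68 CPM in cKO. It fell by 0.52 on the log2 scale (standard error 0.19, edgeR adjusted p = 0.0448), and the call was lost by DESeq2 (adjusted p = 0.0505) and without any 1 culture (edgeR adjusted p from 0.0520 to 0.181). Gins4 stayed near 0 at -0.09. The kinase Cdc7, not called, was at 21.9, 23.8 and 24.9 CPM against 25.8, 27.2 and 31.0 CPM (edgeR adjusted p = 0.0688). Cdc45 and Ccne2 were at 0.39 (edgeR adjusted p = 0.0595) and 0.34 without a call, and Ccne2 shares 41.9% of its span with another gene.

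Of the 9 polymerase and primase genes, Pole2 and Pole, subunits of the leading-strand polymerase, had the largest changes. Pole2 was measured at 1.58, 2.23 and 1.96 CPM in WT and 3.63, 4.60 and 3.28 in cKO, a log2 fold change of 0.996 (standard error 0.24, edgeR adjusted p = 0.00529). Pole was at 12.1, 9.97 and 10.4 CPM in WT and 16.2, 18.8 and 17.5 in cKO, a rise of 0.68 (standard error 0.13, edgeR adjusted p = 0.000849). Both had separate groups. Pold1, the catalytic subunit of polymerase delta, was at 15.04, 16.5 and 18.1 against 19.5, 22.6 and 19.96 CPM (log2 fold change 0.32, edgeR adjusted p = 0.0390), and its call was lost with sex as a covariate (edgeR adjusted p = 0.0840), without the filter on low counts (0.0506) and without WT replicate 1, WT replicate 2 or any 1 cKO culture (0.0592 to 0.170). Pola1 and Prim2 of the primase complex were called at 0.30 and 0.29. Pola1 lost its call with sex as a covariate (0.0531), without the filter (0.0570) and without any 1 culture but WT replicate 1 (0.0523 to 0.122), and Prim2 without the filter (0.0596) or without WT replicate 2, WT replicate 3, cKO replicate 1 or cKO replicate 3 (0.0784 to 0.157). Pold3 was at 41.5, 39.9 and 44.1 CPM in WT and 39.4, 44.6 and 41.3 CPM in cKO, with a log2 fold change of 0.00. Pola2, Prim1 and Pold2 were at 0.31, 0.11 and 0.13, also not called.

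Of the clamp and its loader, 1 of 6 was called. Rfc4 was at 8.11, 6.63 and 7.005 CPM in WT against 9.07, 11.1 and 10.1 in cKO, a rise of 0.47 (standard error 0.15, edgeR adjusted p = 0.0243) that was not called without WT replicate 2, WT replicate 3, cKO replicate 2 or cKO replicate 3 (0.0584 to 0.105). Pcna was at 67.0, 71.8 and 59.2 CPM in WT and 66.3, 69.6 and 77.9 in cKO, and the groups overlapped (log2 fold change 0.11, standard error 0.10, edgeR adjusted p = 0.380). Rfc1, the large subunit of the loader, was at 66.6, 68.6 and 68.0 CPM against 58.8, 59.9 and 58.7 CPM, below WT in every cKO culture but not called (log2 fold change -0.20, edgeR adjusted p = 0.0632). Rfc2, Rfc3 and Rfc5 were between 0.14 and 0.29, none called.

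RPA coats the single strands that the helicase opens, and none of its subunits rose. Rpa1 was at 82.2, 81.9 and 81.9 CPM in WT and 68.1, 65.7 and 67.6 CPM in cKO, with hardly any spread within a genotype. It fell by 0.29 on the log2 scale (standard error 0.07, edgeR adjusted p = 0.00761) and kept its call under every alternative that gave a p-value. Rpa2 was at 17.02, 18.4 and 17.3 against 15.3, 15.03 and 16.3 CPM, below WT in every cKO culture but not called (edgeR adjusted p = 0.224). Rpa3 had a log2 fold change of -0.06.

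Lig1, the ligase that joins Okazaki fragments, was at 20.2, 26.6 and 24.8 CPM in WT and 26.2, 37.2 and 32.7 in cKO, a rise of 0.43 (standard error 0.13, edgeR adjusted p = 0.0216) with 1 overlap, not called without WT replicate 1, cKO replicate 2 or cKO replicate 3 (0.0630 to 0.109). Tyms, which makes thymidylate, was at 5.58, 5.18 and 5.40 CPM in WT and 8.97, 10.1 and 9.45 CPM in cKO, a rise of 0.82 (standard error 0.15, edgeR adjusted p = 0.000762). Its genotypes lay far apart relative to the spread. The large subunit of ribonucleotide reductase, Rrm1, was at 76.5, 73.0 and 67.5 against 73.1, 84.1 and 79.3 CPM (edgeR adjusted p = 0.264), and the small subunit Rrm2 had a log2 fold change of 0.25 (edgeR adjusted p = 0.256).

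For 3 of the 48 the culture table carries little. Cdt1 and Gins2 were listed at 0 counts in all 6 cultures, and 100% of their span in the table lies inside another gene model. Fen1 had 0.675, 0.947 and 0.714 CPM in WT and 0.441, 0.466 and 0.627 CPM in cKO, with 67.7% of its span shared (edgeR adjusted p = 0.268). The scRNA-seq matrices count all 3.

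**Figure D2:**
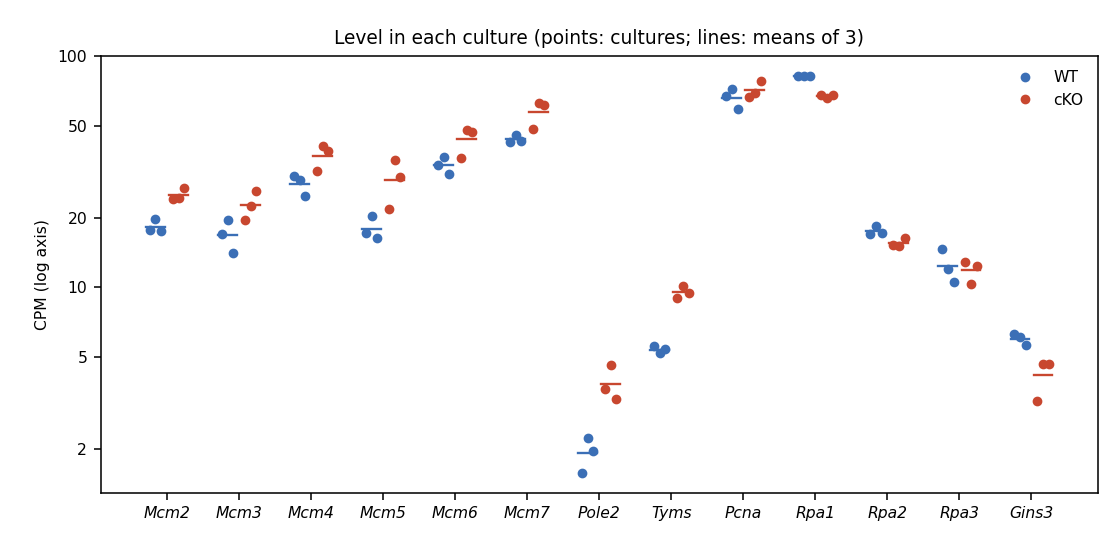
CPM (vertical, log axis) of 13 replication genes in each of the 3 WT (blue) and 3 cKO (red) cultures, with lines at the means. Mcm5 runs from 16.3 to 20.3 CPM in WT and 21.8 to 35.7 in cKO, while Rpa1 is near 82 CPM in WT and 65.7 to 68.1 in cKO.

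Other genes of replication moved alike in part. Of 40 such genes outside the 48, 39 were tested, with 18 called higher, 3 lower and a median log2 fold change of 0.24. The largest rises above 5 CPM were Mms22l (1.13), a fork repair factor, Dtl (1.06), which directs Cdt1 to destruction, and Ticrr (1.04), which brings Cdc45 to the helicase. The falls were Chtf8 (-0.38), Pole3 (-0.38) and Mcm9 (-0.31). Of 13 E2F and RB family genes, 5 were called higher and none lower: E2f7 at 1.15, E2f8 at 0.73, E2f1 at 0.62, Tfdp1 at 0.38 and Rbl1 at 0.37.

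Genes of mitosis moved more. All 12 cycling markers that share no gene with the list, such as Mki67, Top2a and Cdk1, were called higher, with a median log2 fold change of 0.99. Their summed level was 268, 240.5 and 206 CPM in WT and 376, 499.7 and 547 CPM in cKO. Markers of other cells moved as well: 7 of 9 tested neuron markers and 4 of 5 tested astrocyte markers were called lower, and of 6 oligodendrocyte lineage markers 2 were higher and 1 lower. The oligodendrocyte lineage sum was 3408, 3478 and 3244 CPM in WT and 2781, 3207 and 3079 CPM in cKO, lower with no overlap. The astrocyte sum ran from 4007 to 4429.9 CPM in WT and from 2439 to 2751 CPM in cKO, and the neuron sum from 2317 to 2647 and from 2373 to 2476 CPM. The defining markers Sox2, Tubb3 and Gfap were listed at 0. The part of these cells in the results above was not tested.

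In the embryos, the genes were followed by cell class. After filtering, 8214 WT and 9560 cKO cells remained, with medians of 11705 and 11012.5 UMIs. The libraries shared 22 of 8289 and 9659 barcodes. Cells were clustered without the replication genes, and clusters were called AP-like, IP-like, GE-like (ganglionic eminence) or neuron-like from markers. There were 942 WT and 1274 cKO AP-like cells, 736 and 805 IP-like cells, and 110 and 133 cells of a GE-like cluster that raised all 12 cycling markers, called GE progenitor-like here. Of the IP-like cells, 156 WT and 166 cKO cells were in clusters that raised the cycling markers. With 1 embryo per genotype there is no test, and every interval covers counting error only.

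The replication genes stood higher in the cKO APs. Over AP-like cells, 44 of 48 had a higher CPM, here UMIs scaled to the class total, in the cKO embryo. The median log2 ratio was 0.24, against -0.01 over all genes with at least 200 UMIs. At a log2 ratio of 0.2 or more, 31 of 48 were higher and none lower, where 12.3% of 10242 genes were higher and 10.3% lower. The interval of the ratio lay above 0 for 35 genes and below 0 for Dbf4. Of the 21 genes called higher in cultures, 19 were above 0 in APs, as were 21 of the 23 tested genes that were not called. In IP-like cells, 42 of 48 were above 0 with a median of 0.14. Of the 44 with 200 UMIs, 14 were 0.2 or more higher and 1 lower (12.3% and 9.20% of all genes). In the cycling IP-like cells alone the median was 0.18, and 14 of 36 were higher and 1 lower (14.8% and 12.2%).

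In GE progenitor-like cells the direction was the opposite. Emx1-Cre acts in dorsal cortical progenitors, and deletion of Syncrip in these GE-like cells was not tested. Syncrip was at 356 CPM in WT and 315 in cKO cells of this cluster. There 39 of 48 genes were lower in cKO and the median log2 ratio was -0.21. Of the 27 with 200 UMIs, 1 was 0.2 or more higher and 11 lower, against 16.8% and 15.7% of 3788 genes. Genes higher in APs and lower in GE progenitors numbered 35, and none went the other way. With 44 of 48 higher in APs and 39 of 48 lower here, a large joint count follows from these totals alone. The interval of the GE progenitor ratio lay below 0 for 11 of the 48 and above 0 for 1, and held 0 for most. The summed level of the 48 rose from 3213 CPM (WT) to 3744 (cKO) in APs and from 4036 to 4544 in cycling IPs, and went from 4343 to 3866 in GE progenitors. In neuron-like cells, which serve as a background, a median cell of either genotype held 4 UMIs of the 48 among 5000.

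**Figure D3:**
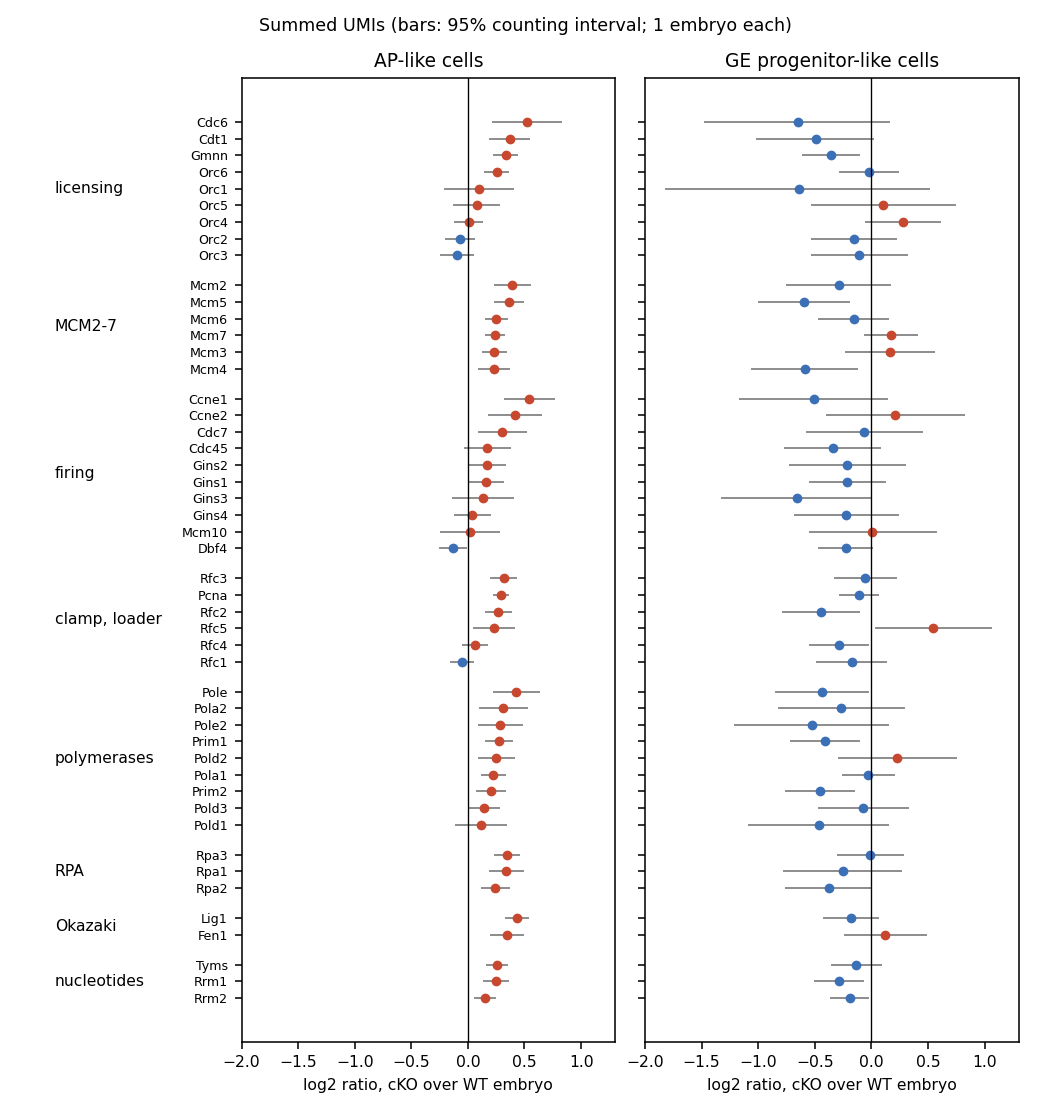
Log2 ratio of CPM (cKO over WT embryo, horizontal axis) for the 48 genes in AP-like (left) and GE progenitor-like cells (right), with 95% counting intervals and 1 embryo per genotype. In APs 44 of 48 points lie right of 0, and in GE progenitors 39 of 48 lie left of it.

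By role, all 6 helicase subunits were higher in cKO APs, with ratios from 0.23 to 0.39. Mcm7 had 164 CPM in WT and 193 in cKO APs, which is 0.24 on the log2 scale (0.16 to 0.32), and was found in 53.0% and 58.3% of AP-like cells thinned to 5000 UMIs. In neuron-like cells that share was 25.4% and 23.1%. Mcm2 had the largest ratio, 0.39 (0.24 to 0.55), and Mcm4 the smallest, 0.23 (0.10 to 0.37). In GE progenitors, Mcm4 and Mcm5 were both at -0.59, with intervals of -1.05 to -0.13 and -0.99 to -0.20, and Mcm7 was at 0.17 (-0.06 to 0.41).

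Of the 9 licensing genes, 4 had an AP ratio of 0.2 or more: Cdc6, Cdt1, Gmnn and Orc6. Cdc6 went from 11.1 to 15.96 CPM in APs, a ratio of 0.52 (0.22 to 0.83), and was near absent from neurons at 0.340 and 0.488 CPM. Gmnn went from 104 to 130.5 CPM, a ratio of 0.33 (0.23 to 0.43). Cdt1, uncounted in cultures, went from 35.6 to 45.9 CPM, a ratio of 0.37 (0.20 to 0.54). Orc2, Orc4 and Orc5, called higher in cultures, had AP ratios of -0.07, 0.01 and 0.08 with intervals that held 0. Orc6 was at 0.25 (0.15 to 0.36) and Orc1 at 0.09 (-0.20 to 0.40), and Orc3 was the lowest at -0.09 (-0.23 to 0.05). Orc4 was at 81.8 CPM in APs and 101 CPM in neurons of the WT embryo, so its transcript is not limited to dividing cells.

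Of the firing genes, Ccne1 had the largest ratio of the whole list. It went from 21.3 to 30.9 CPM, a ratio of 0.54 (0.33 to 0.76), and was at 0.64 (0.22 to 1.06) in cycling IPs. Dbf4, which had the most AP UMIs of this group, went from 89.8 to 81.9 CPM, a ratio of -0.13 (-0.25 to -0.02). Gins3, called lower in cultures, stood at 0.13 (-0.13 to 0.40), while Gins1 and Mcm10 were at 0.16 (0.01 to 0.31) and 0.02 (-0.23 to 0.27).

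The clamp Pcna went from 239 to 293 CPM in APs, a ratio of 0.29 (0.23 to 0.36), and was found in 49.0% of WT and 57.3% of cKO thinned cells, against 19.5% and 19.1% of neurons. The loader subunit Rfc3 was at 0.32 (0.21 to 0.43) and Rfc1 at -0.05 (-0.15 to 0.05). Of the polymerases, Pole had the largest ratio, 0.43 (0.23 to 0.63), Pola1 the most UMIs at 0.23 (0.12 to 0.33), and Pold1 the smallest ratio at 0.11 (-0.11 to 0.34).

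The RPA subunits, none of which rose in cultures, were all higher in cKO APs. Rpa1 went from 46.7 to 59.1 CPM, a ratio of 0.34 (0.19 to 0.49). Rpa3 was also at 0.34 (0.24 to 0.45) and Rpa2 at 0.24 (0.12 to 0.37). Lig1 went from 99.4 to 134 CPM, a ratio of 0.43 (0.33 to 0.53), and from 26.2% (23.2 to 29.5) to 37.9% (35.1 to 40.9) of thinned cells. Fen1 was at 0.34 (0.20 to 0.49). Rrm2, with the most UMIs of its group, was at 0.15 (0.06 to 0.24) and Tyms at 0.25 (0.16 to 0.34).

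Mitotic transcripts differed from the list in direction over all APs but not in every class. The 12 cycling markers had a median log2 ratio of -0.093 in APs, with a summed level of 2726 CPM in WT and 2541 in cKO. In the AP-like cluster that did not raise them, the sum was 405 and 481 CPM with 9 of 12 higher in cKO. It was 1277 and 1418 CPM in IPs and 4945 and 5439 CPM in cycling IPs, with 10 of 12 higher in each. In GE progenitors the same sum was 6559 and 6184 CPM. Among markers of other cells in APs, immature neuron markers summed to 583 CPM in WT and 706 in cKO, migrating neuron markers to 205 and 246 CPM, GE markers to 42.5 and 70.2 CPM and red blood cell markers to 89.2 and 295 CPM, beside AP markers at 8398 and 8346 CPM. In GE progenitors, migrating neuron markers summed to 154 and 298.5 CPM and immature neuron markers to 845 and 1144 CPM, beside GE markers at 3530.1 and 3349 CPM. The part of such cells in the ratios was not tested.

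The change in APs was not even over clusters. In the AP-like cluster that did not raise cycling markers, with 441 WT and 651 cKO cells, the median ratio of the 48 was 0.46 and 44 were above 0. In the AP-like clusters that raised them, with 501 and 623 cells, it was 0.09 and 34 were above 0. The first cluster held 46.8% (43.6 to 50.1) of WT and 51.1% (48.3 to 53.9) of cKO APs.

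Counted per cell at 5000 UMIs, the list gave a median of 11 UMIs in WT and 14 in cKO APs. The upper quartile was 21 in WT and 27 in cKO, the 90th percentile 37 and 40, and the highest cell 60 and 63. The gap between embryos was widest at the upper quartile and narrower at both ends. Cycling IPs had medians of 14 and 19 and GE progenitors of 19 and 17.

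**Figure D4:**
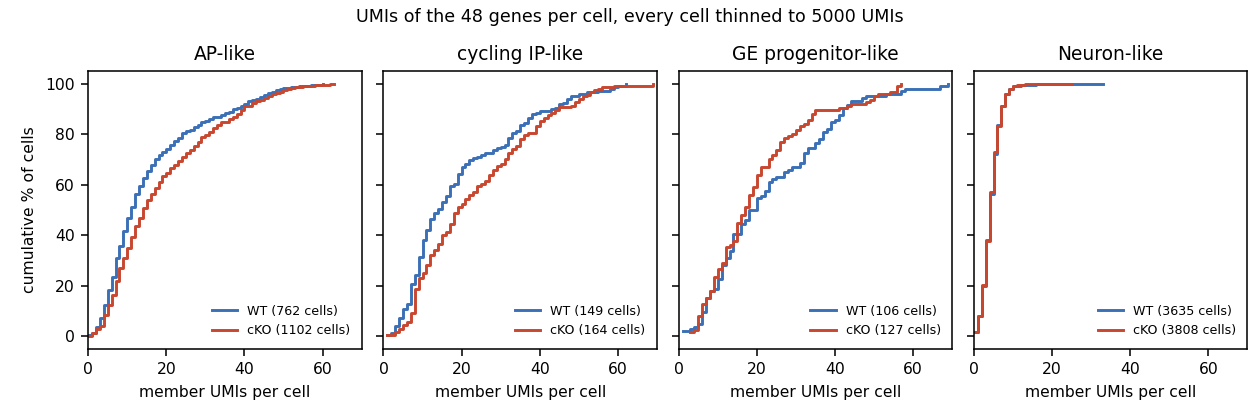
Cumulative share of cells (vertical, %) by UMIs of the 48 genes per cell (horizontal) after thinning every cell to 5000 UMIs, for 4 cell classes of the WT (blue) and cKO (red) embryo. The cKO curve lies right of WT in APs and cycling IPs and mostly left of it in GE progenitors, and the neuron curves coincide near 4 UMIs.

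Phases were then called from the Seurat S and G2/M genes with the 48 genes taken out, which left 25 S and 54 G2/M genes, on cells thinned to 5000 UMIs. These calls are scores of transcripts and not a measure of DNA synthesis. Other genes of S phase stayed in the S score, so the calls are not independent of the list. The cut at 5000 UMIs kept 342 of 501 WT and 462 of 623 cKO cells in the AP-like clusters that raised cycling markers. In the other AP-like cluster it kept 420 of 441 WT and 640 of 651 cKO cells. Among the APs kept, S was called in 169 of 762 WT cells (22.2%, 19.3 to 25.3) and 354 of 1102 cKO cells (32.1%, 29.4 to 35.0). G1 was called in 27.6% (24.4 to 30.9) and 20.8% (18.4 to 23.3), and G2/M in 50.3% (46.7 to 53.9) and 47.1% (44.1 to 50.1). In GE progenitors S was called in 16 of 106 WT cells (15.1%, 8.88 to 23.4) and 9 of 127 cKO cells (7.09%, 3.29 to 13.03), intervals that overlap.

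The list followed these calls closely, which was in part fixed beforehand by the other S-phase genes used for the calls. In WT APs, 46 of the 48 genes had their highest level in cells called S, and in cKO APs 45 did. Cdc6 was at 38.2 CPM in S, 4.96 in G2/M and 2.54 in G1 cells of WT, and Pcna at 596, 174 and 85.7 CPM. Dbf4 differed, with 58.4 CPM in S and 131 in G2/M, and Orc4 was nearly even at 79.0, 81.1 and 90.7 CPM. Orc3, with an AP ratio below 0 as well, was at 60.9 CPM in S and 59.5 in G1.

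Within cells called S, the genotypes were close, though such cells were picked by the level of other S-phase transcripts. The summed level was 6317 CPM in WT and 6150.4 in cKO, a log2 ratio of -0.04 (-0.07 to -0.01), with a median of -0.06 over the 48 and 19 above 0. That median turned to 0.079 with cells thinned to 3000 UMIs and 0.026 without thinning. Within G2/M the sum went from 2870.3 to 3164 CPM (0.14, 0.11 to 0.17) and within G1 from 1336 to 1512 CPM (0.18, 0.12 to 0.24), with 39 of 48 above 0 in each. The G1 median of 0.23 was 0.47 with cells thinned to 3000 UMIs, 0.38 without thinning and 0.14 with the full phase lists. In the cells of at least 5000 UMIs, for which phases were called, the AP median was 0.24 unweighted and 0.046 when each called phase counted the same in both embryos, with 31 of 48 above 0. The IP median was 0.14 and -0.034 in the same way. In GE progenitors the log2 ratio of the sum was -0.07 (-0.18 to 0.03) within S, over 16 WT and 9 cKO cells. Within G2/M it was -0.06 (-0.112 to -0.008), over 90 and 118 cells, beside -0.17 (-0.21 to -0.12) over all GE progenitors.

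**Figure D5:**
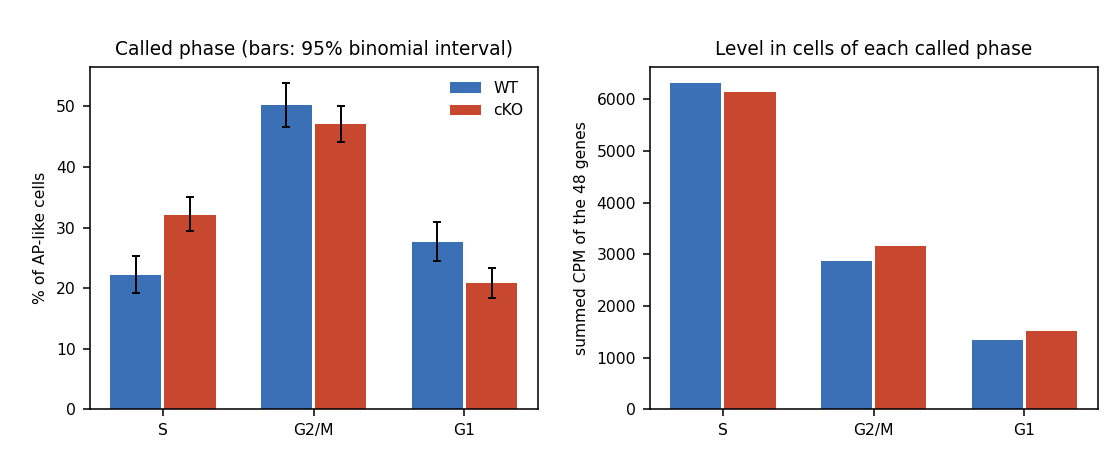
Left, share of AP-like cells (vertical, %) called S, G2/M or G1 without the 48 genes, with 95% binomial intervals, in the WT (762 cells) and cKO (1102 cells) embryo. Right, summed CPM of the 48 genes in cells of each called phase; the S calls cover 22.2% of WT APs and 32.1% of cKO APs, while the level within S is 6317 and 6150.4 CPM.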

How the data were processed

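RNA-seq of 6 NPC cultures and scRNA-seq of 2 embryos were used; LACE-seq was not analysed here. For the cultures, the authors deposited raw counts per gene after quality filtering and HISAT2 alignment to mm10; for the counting program, annotation and strand setting, nothing was found in the sources used here, and the table's length of each of the 48 genes equals its whole span. For scRNA-seq, the authors deposited UMI counts from Cell Ranger.

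Counts were tested in R 4.3.3 with edgeR 4.0.16 (filterByExpr defaults, TMM, robust quasi-likelihood, Benjamini-Hochberg over 14432 genes at 0.05), checked on simulated counts; CPM are TMM-scaled. An exact permutation test of 1 gene over these cultures could not give a p below 0.1. Barcodes under 200 genes or over 10% mitochondrial UMIs were dropped and the rest clustered with Seurat 5.3.0 (2000 variable genes, 30 components, resolution 0.8), leaving out the 48 genes, other replication, E2F and RB genes, sex genes, mitochondrial genes and Syncrip. A cluster took the class with the largest share of markers raised 1.5-fold (at least 3, 5 CPM added), unless another class had more markers among its 10 leading genes; 1 AP-like cluster, of 195 WT and 212 cKO cells, had a median of only 2799 UMIs and was left out as an alternative; cycling means 6 or more of 12 cycling markers raised. Doublets (298 WT and 451 cKO by Scrublet in scanpy 1.11.5) were kept and removed as an alternative. UMIs were summed per class; ratios have exact conditional intervals, shares exact binomial ones, both at 95%.

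The genes, lists and tests were chosen with earlier results of these data known. Named genes were, per role group, up to 3 called genes with the largest change, the uncalled gene with the highest CPM, any gene called against the majority and, in APs, the genes with the most UMIs and the largest and smallest ratio; Cdt1, Gins1, Gins2, Gins3, Mcm5, Mcm10, Orc2, Orc4 and Orc5 in APs, Mcm4 and Mcm5 and Mcm7 in GE progenitors and Rfc1 in cultures were added after their values were seen, to set cultures and embryos side by side. Alternatives were other scalings, filters, DESeq2 1.42.0, limma-voom 3.58.1, sex as covariate, replicate blocks, each culture left out and other clusterings, cell filters, weights, depths and phase lists.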

Additional observations from a re-analysis of the deposited data

Results flagged for a closer look

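The 48 replication genes had a median log2 ratio of 0.24 in AP-like cells and -0.21 in GE progenitor-like cells. These were opposite directions under the same contrast of 1 cKO with 1 WT embryo, and the difference was not tested. Emx1-Cre acts in dorsal cortical progenitors, and deletion of Syncrip in the GE-like cells was not tested. Rpa1 was at -0.29 in cultures and 0.34 in AP-like cells, and Dbf4 at 0.38 in cultures and -0.13 in AP-like cells; neither difference was tested. The 12 cycling markers had a median of 0.99 in cultures and -0.093 in AP-like cells, which was not tested either. Cultures and embryos differ in platform, cells and depth.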

How the results depend on the processing

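None of the 46 log2 fold changes in cultures changed sign in a called gene under any alternative. Of 23 called genes, 18 kept the call under every setting with all 6 cultures, and 10 also with each culture left out: Orc5, Mcm2, Mcm5, Ccne1, Mcm10, Gins1, Pole, Pole2, Rpa1 and Tyms. Leaving out 1 culture gave 10 (without cKO replicate 3) to 21 genes called higher and 1 to 2 lower, 10 to 16 other replication genes higher and 1 to 2 lower, and 13 higher without cKO replicate 2. DESeq2 called 20 higher and 1 lower. With replicate numbers as a block, 24 were called higher and 3 lower. Same-numbered cultures correlated at 0.26, -0.05 and 0.12, so the numbers were not taken as pairs.

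In scRNA-seq, the AP median was 0.26 at resolution 0.4, 0.29 in thinned cells and 0.046 with phases weighted equally. Cells of at least 5000 UMIs without weighting, an alternative chosen after seeing the data, gave 0.24. The IP median was 0.20 at resolution 0.4 and -0.034 with equal phases, where 20 genes were above 0. The GE progenitor median was -0.14 without doublets and -0.26 in thinned cells. No value with S, G2/M and G1 weighted equally is given for GE progenitors, since none of these cells was called G1. The share of APs called S was 28.8% in WT and 36.8% in cKO at 3000 UMIs and 26.2% in WT and 34.5% in cKO unthinned. Within S the median was 0.079 at 3000 UMIs and 0.026 unthinned, within G1 it was 0.47, 0.38 and, with full phase lists, 0.14, and within G2/M it was 0.19 without doublets. The cause of these shifts was not tested. With 1 embryo per genotype, spread between embryos is unknown.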
